A study of Mus musculus with 20 samples.

Results

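The T cell receptor (TCR) on a CD8 T cell is built from an α chain and a β chain, and here both chains were compared within each of 17 mice. The mice were those with a usable clone table for TCRα and for TCRβ, 17 of the 20 mice that the labels list, 5 in each of 4 genotypes. They were 4 WT mice (replicates 1 to 4), 5 β5i-KO mice, 4 β5t-KO mice (replicates 1 to 4) and 4 BIT mice (replicates 1, 2, 4 and 5). All were males aged 9 to 12 weeks on the B6 background, and the cells were TCRβ-high, CD4-negative and CD8-positive T cells sorted to over 98% purity. The sample labels name lymph nodes as the source, whereas the protocol names spleens as well. WT mice carry both catalytic proteasome subunits concerned, β5i of the immunoproteasome (gene Psmb8) and β5t of the thymoproteasome of cortical thymic epithelium (gene Psmb11). β5i-KO mice lack β5i throughout the body and β5t-KO mice lack β5t. BIT mice are homozygous for an allele that places the β5t sequence where β5i is encoded, so that β5t is made in cells that would make β5i. They therefore lack β5i, as β5i-KO mice do, and still make β5t in cortical thymic epithelium. Several BIT lines were made and most of the study used 1 of them, but the labels do not give the line. Psmb8 and Psmb11 are not measured by TCR sequencing, and genotype is taken from the labels alone.

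Germline segments are joined in the complementarity-determining region 3 (CDR3), the loop that contacts the presented peptide. In TCRα a V segment is joined to a J segment at a single junction. In TCRβ a short D segment lies between V and J, which makes a pair of junctions. Terminal deoxynucleotidyl transferase can add untemplated bases, called N nucleotides, at every junction. TCRβ is rearranged first and its locus is subject to allelic exclusion, while TCRα is rearranged later, on both alleles and often repeatedly until a cell is positively selected or dies. The mouse TRA locus lies at chr14:52665385-54461663 and the TRB locus at chr6:40868163-41535386 (GENCODE vM39 on GRCm39).

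The sequences that recurred in the most mice show how the chains differ, and up to 3 of the nucleotide sequences found in the most mice are printed for each. Bases from V, D and J are in lower case and N-added bases are in capitals, as the deposited junction positions assign them. The TCRα amino acid sequence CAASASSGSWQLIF was found in 17 of 17 mice, in 43 nucleotide sequences, of which 27 held no N nucleotide. The printed forms join TRAJ22 (chr14:54434705-54434764) to V genes such as TRAV14N-3 and TRAV14-2.
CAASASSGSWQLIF, TRAV14N-3 to TRAJ22, in 17 mice: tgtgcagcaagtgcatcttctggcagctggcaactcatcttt
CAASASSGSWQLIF, TRAV14-2 to TRAJ22, in 17 mice: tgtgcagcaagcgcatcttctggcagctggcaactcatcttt
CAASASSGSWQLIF, TRAV5D-4 to TRAJ22, in 16 mice: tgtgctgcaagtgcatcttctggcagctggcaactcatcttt
The TCRα sequence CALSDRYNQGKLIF was also found in 17 mice, in 19 nucleotide sequences. The printed forms join TRAV12-1 (chr14:53775648-53776195) to TRAJ23 (chr14:54433538-54433597) with 1 or 2 N nucleotides.
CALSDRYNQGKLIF, TRAV12-1 to TRAJ23, in 15 mice: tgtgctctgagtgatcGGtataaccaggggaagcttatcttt
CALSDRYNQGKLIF, TRAV12-1 to TRAJ23, in 14 mice: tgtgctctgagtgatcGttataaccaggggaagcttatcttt
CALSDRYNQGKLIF, TRAV12-1 to TRAJ23, in 14 mice, other form: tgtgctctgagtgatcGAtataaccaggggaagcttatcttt
The TCRβ sequence found in the most mice was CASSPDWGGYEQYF, in 16 mice and 27 nucleotide sequences. The printed forms join TRBD2 (chr6:41519097-41519110) to TRBJ2-7 (chr6:41520744-41520790), and no nucleotide form of it was in more than 8 mice.
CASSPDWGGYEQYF, TRBV4, TRBD2, TRBJ2-7, in 8 mice: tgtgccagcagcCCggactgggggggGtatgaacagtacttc
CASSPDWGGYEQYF, TRBV3, TRBD2, TRBJ2-7, in 5 mice: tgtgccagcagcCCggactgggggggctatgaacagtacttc
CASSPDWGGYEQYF, TRBV12-1, TRBD2, TRBJ2-7, in 4 mice: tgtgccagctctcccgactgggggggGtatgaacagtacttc
The TCRβ sequence with the most nucleotide sequences was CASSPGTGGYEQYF, with 58 in 14 mice, of which 16 held no N nucleotide.
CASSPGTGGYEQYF, TRBV4, TRBD2, TRBJ2-7, in 10 mice: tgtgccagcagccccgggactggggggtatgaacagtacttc
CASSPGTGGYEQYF, TRBV4, TRBD2, TRBJ2-7, in 7 mice: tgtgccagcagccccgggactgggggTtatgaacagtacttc
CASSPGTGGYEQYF, TRBV3, TRBD2, TRBJ2-7, in 6 mice: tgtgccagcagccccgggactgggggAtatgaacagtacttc

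The TCRα tables of the 17 mice held 14772 to 602397 unique molecules, with a median of 171749, and the TCRβ tables held 8119 to 146469, with a median of 41405. A molecule here is a cDNA copy tagged with its own identifier before amplification. TCRα had more molecules than TCRβ in 16 of 17 mice, by a median ratio of 3.92. The number of clones, each a distinct nucleotide CDR3, did not lean to either chain in this way, with more TCRα than TCRβ clones in 9 of 17 mice. TCRα clones numbered 720 to 31876 and TCRβ clones 421 to 42399. The smallest table of either chain was the TCRβ table of β5t-KO replicate 2, with 393 in-frame clones. Receptors typical of other T cells that could pass the sort were rare. TRAV11 or TRAV11D joined to TRAJ18, the invariant natural killer T cell receptor, made up at most 0.0485% of TCRα clones, and TRAV1 joined to TRAJ33, used by mucosal-associated invariant T cells, at most 0.152%.

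In-frame clones, those with neither a frameshift nor a stop codon, made up a smaller share of TCRα than of TCRβ in every mouse. The TCRα share ran from 89.0% to 92.0% over the 17 mice with a median of 90.6%, and the TCRβ share ran from 93.3% to 97.6% with a median of 96.8%. The ranges did not overlap. The mean difference was -6.06 ± 1.49 percentage points (SD, n = 17), lower in 17 of 17 mice, with an exact sign-flip permutation p of 1.53e-05 (two-sided, adjusted p 1.83e-05 over the 6 measures). This p is the smallest that 17 mice can give. Out-of-frame clones carried the difference, with 9.24% ± 0.992 of TCRα clones and 3.19% ± 1.02 of TCRβ clones (SD, n = 17). In-frame clones with a stop codon were 0.24% ± 0.0863 of TCRα clones and 0.228% ± 0.16 of TCRβ clones, higher for TCRα in 11 of 17 mice. The lowest TCRβ shares, 93.3% and 94.5%, came from β5t-KO replicates 2 and 4. Counted by molecules instead of clones, the in-frame share was 92.1% ± 0.836 for TCRα and 97.2% ± 0.864 for TCRβ (SD, n = 17).

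Transcripts with a premature stop codon are subject to nonsense-mediated decay, and the molecules of in-frame and non-productive clones were therefore set side by side. An in-frame clone held on average 1.23 ± 0.0826 times as many molecules as a non-productive clone of the same TCRα table (SD, n = 17). The same ratio for TCRβ was 1.25 ± 0.269, and it was higher for TCRα in 12 of 17 mice. The TCRβ ratio rested on 28 to 1317 non-productive clones per mouse, against 64 to 3234 for TCRα.

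TCRα clones were represented on average by more molecules than TCRβ clones of the same mouse. The mean number of molecules per in-frame clone ran from 1.98 to 114 for TCRα, with a median of 19.04, and from 1.45 to 19.5 for TCRβ, with a median of 4.89. The highest values of both chains came from β5t-KO replicates 2 and 4 and the lowest from β5i-KO replicate 4. The mean log2 ratio was 1.76 ± 0.456 (SD, n = 17), a 3.39-fold difference with a range over mice of 1.36-fold to 5.82-fold. It was higher in 17 of 17 mice, with an exact sign-flip permutation p of 1.53e-05 (two-sided, adjusted p 1.83e-05). The difference depended on the number of molecules read. When the larger of both chains was thinned to the molecules of the smaller within each mouse, the ratio was 1.14-fold, with a range of 0.467-fold to 1.74-fold, and higher for TCRα in 13 of 17 mice. The log2 ratio was then 0.18 ± 0.475 (SD, n = 17) and did not pass the test (exact sign-flip permutation p 0.13, two-sided). In β5i-KO replicate 4, the mouse with nearly equal tables of 14772 TCRα and 14988 TCRβ molecules, the ratio was 1.36-fold as deposited. Clones of that mouse had at least 9 reads in TCRα and at least 5 in TCRβ, so the chains also differed in their lowest read count. The part played by transcript number per cell, capture of the transcript and amplification was not tested.

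**Figure D1:**
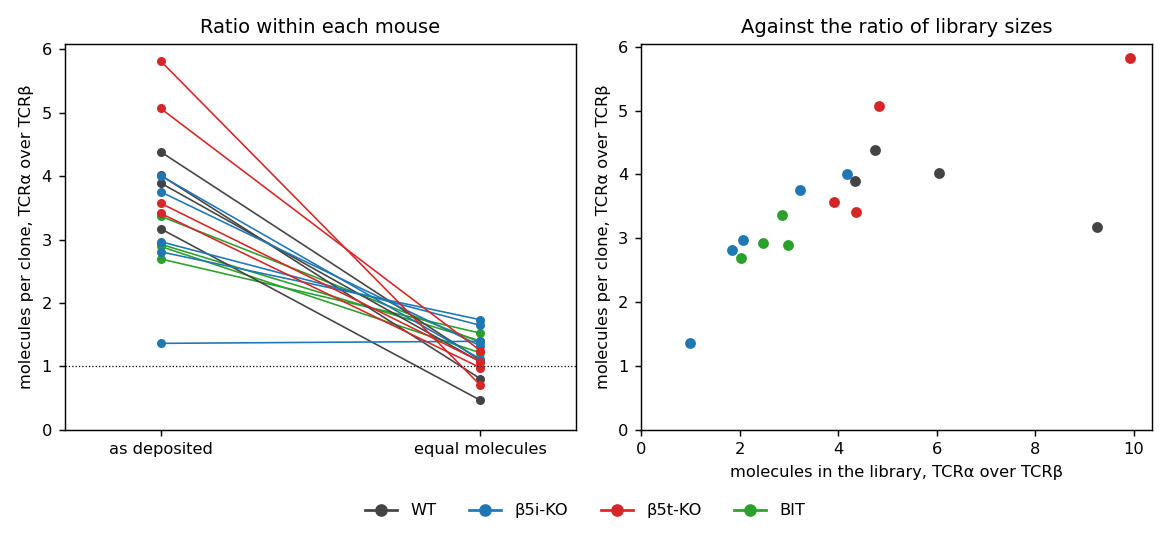
The left panel plots the ratio of molecules per in-frame clone, TCRα over TCRβ, for each of 17 mice (points joined by lines, coloured by genotype), as deposited and after both chains were thinned to equal molecules. The right panel plots the deposited ratio against the ratio of molecules in the TCRα and TCRβ tables. All 17 ratios lay above 1 as deposited (1.36 to 5.82), whereas 13 did at equal molecules (0.467 to 1.74).

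Within a table the largest clone took a larger share of in-frame molecules in TCRα than in TCRβ in 17 of 17 mice. It held 0.518% to 2.45% of TCRα molecules, with a median of 0.653%, and 0.0797% to 1.71% of TCRβ molecules, with a median of 0.125%. A clone here is a nucleotide CDR3 that separate cells can form independently, so its share does not measure how far a cell had multiplied. How many rearrangements stood behind the largest clones was not tested. Clones seen as 1 molecule made up a median of 7.99% of in-frame TCRα clones and 14.8% of TCRβ clones, lower for TCRα in 15 of 17 mice. These shares were taken as deposited, with more molecules in TCRα in 16 of 17 mice. In β5i-KO replicate 4, with nearly equal tables, clones seen as 1 molecule were 53.7% and 69.8%. The lowest read count of a clone in that mouse was 9 in TCRα and 5 in TCRβ.

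TCRα CDR3 loops were only slightly shorter than TCRβ loops, although the former hold no D segment and the latter do. The mean length of in-frame clones, counted from the conserved cysteine to the conserved phenylalanine with both included, ran from 13.52 to 13.87 amino acids for TCRα with a median of 13.61. It ran from 13.83 to 13.96 for TCRβ with a median of 13.87. The highest TCRα mean, 13.87 in β5t-KO replicate 2, was the only one within the TCRβ range. The mean difference was -0.251 ± 0.0979 amino acids (SD, n = 17), lower in 17 of 17 mice, with an exact sign-flip permutation p of 1.53e-05 (two-sided, adjusted p 1.83e-05). The SD of length over the clones of a table was 1.46 ± 0.0404 amino acids for TCRα and 1.49 ± 0.0279 for TCRβ (mean ± SD of 17 mice), lower for TCRα in 9 of 17 mice. In β5t-KO mice it was lower for TCRα in 4 of 4, at 1.3995 ± 0.0324 against 1.50 ± 0.0396 (SD, n = 4), while in WT mice it was 1.48 ± 0.015 and 1.48 ± 0.027 (SD, n = 4). This difference between genotypes was not tested. A length of 14 amino acids was the most frequent in both chains, in 30.8% ± 1.07 of TCRα and 30.2% ± 1.02 of TCRβ clones. Loops of 12 and 13 amino acids were more frequent in TCRα (14.2% ± 1.14 and 22.6% ± 0.728) than in TCRβ (11.1% ± 0.676 and 18.8% ± 0.968). Loops of 15 amino acids were less frequent in TCRα, at 16.4% ± 0.628 against 21.4% ± 0.687 (SD, n = 17).

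The parts that made up the loop differed far more than its length. In TCRα the V segment gave 12.0 ± 0.184 nucleotides, N addition 2.29 ± 0.0975 and the J segment 26.6 ± 0.151 (SD, n = 17). In TCRβ the V segment gave 13.9 ± 0.0827 nucleotides, N addition 2.96 ± 0.0848, the D segment 6.28 ± 0.122 and the J segment 18.5 ± 0.0581. The J part was therefore 8.09 nucleotides longer and the V part 1.90 nucleotides shorter in TCRα, in 17 of 17 mice for each. A D segment could be assigned in 74.0% to 78.4% of in-frame TCRβ clones, where it measured 8.33 ± 0.0756 nucleotides.

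Length varied with the J gene over a wider range in TCRα. The 43 TRAJ genes had mean CDR3 lengths from 12.3 amino acids for TRAJ31 (chr14:54425352-54425408) to 15.6 for TRAJ2 (chr14:54455293-54455358). The 12 TRBJ genes ran from 13.2 for TRBJ2-7 to 14.7 for TRBJ2-2 (chr6:41519891-41519941). TRBJ2-7, the TCRβ J gene with the shortest loops, was also the one with the most clones, at 22.6% ± 1.204 (SD, n = 17). The TRAJ gene with the most clones was TRAJ22, at 6.23% ± 0.544 with a mean length of 13.9 amino acids. The V genes with the most clones were TRAV12-1, at 15.6% ± 2.54 of TCRα clones, and TRBV16 (chr6:41128674-41129164), at 12.8% ± 2.51 of TCRβ clones. V genes are less certain in TCRα, where 24.5% to 39.0% of in-frame clones listed several V genes, than in TCRβ, where at most 0.0495% did. The first listed gene was used.

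TCRα clones carried fewer N nucleotides than TCRβ clones in every mouse. The mean per in-frame clone ran from 2.10 to 2.43 for TCRα with a median of 2.29, and from 2.73 to 3.05 for TCRβ with a median of 2.98. The ranges did not overlap. The mean difference was -0.665 ± 0.117 nucleotides (SD, n = 17), lower in 17 of 17 mice, with an exact sign-flip permutation p of 1.53e-05 (two-sided, adjusted p 1.83e-05). Clones with no N nucleotide, whose loop can be read from germline segments alone, made up 26.6% ± 2.20 of TCRα clones and 16.3% ± 1.89 of TCRβ clones (SD, n = 17), higher for TCRα in 17 of 17 mice. Non-productive clones, which encode no functional chain, differed in the same direction, at 2.55 ± 0.134 nucleotides for TCRα and 3.37 ± 0.239 for TCRβ (SD, n = 17).

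The size of this difference depended on how the D segment was handled. TCRβ clones with an assigned D held 2.46 ± 0.0841 N nucleotides, and those without one held 4.51 ± 0.166 (SD, n = 17). In clones without an assigned D, any D remnant too short to be assigned counts as N, and its share was not tested. Against TCRβ clones with an assigned D only, TCRα was lower by 0.163 ± 0.109 nucleotides, with the same exact sign-flip permutation p of 1.53e-05 (n = 17). In those clones the V to D junction held 1.21 ± 0.0483 N nucleotides and the D to J junction 1.25 ± 0.0485. Per junction, therefore, TCRα held more, by 1.07 ± 0.0944 nucleotides in 17 of 17 mice (exact sign-flip permutation p 1.53e-05). That comparison was added after the data had been seen.

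**Figure D2:**
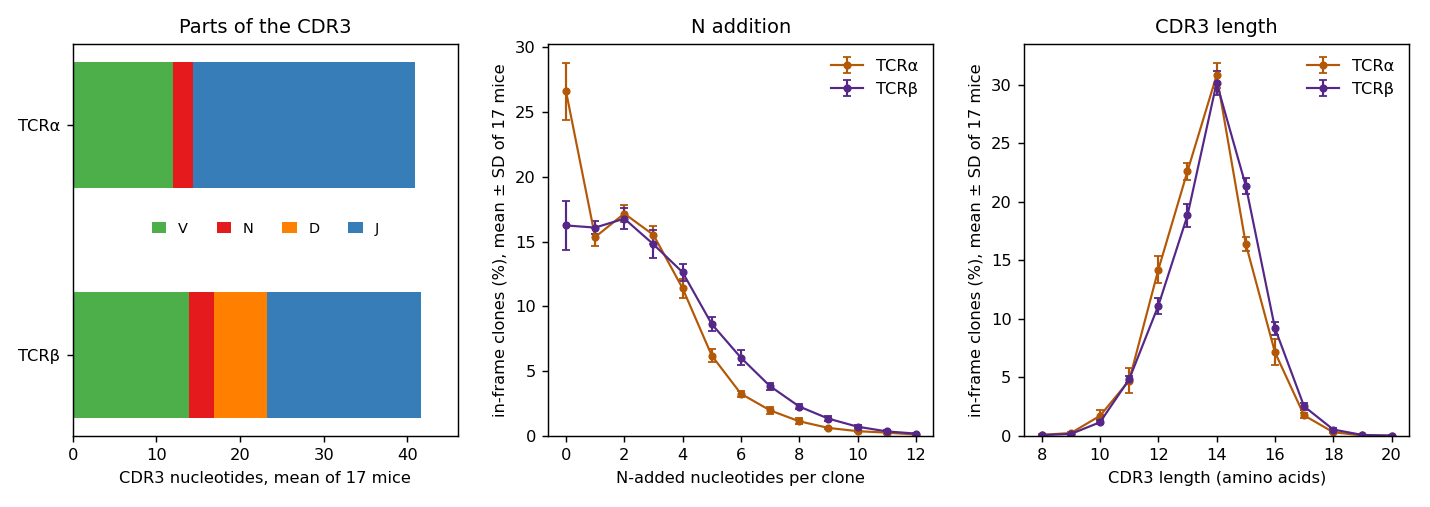
The left panel stacks the mean nucleotides that V, N addition, D and J gave to the CDR3 of in-frame clones (means of 17 mice). The middle and right panels plot the percent of in-frame clones by N-added nucleotides and by CDR3 length in amino acids (points are means, bars are SDs of 17 mice). The J part was longer and the N part shorter in TCRα, clones with no N nucleotide were 26.6% of TCRα and 16.3% of TCRβ, and both length curves peaked at 14.

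The same amino acid CDR3 can be encoded by several nucleotide sequences, which is called convergent recombination, and this was more frequent in TCRα. To compare tables of unequal size, the value expected for 393 clones drawn from each table was computed. There were then 1.0062 to 1.0494 nucleotide sequences per amino acid sequence in TCRα, with a median of 1.0095, and 1.0020 to 1.0261 in TCRβ, with a median of 1.0025. Both ranges overlapped, since mice differed more than chains, but TCRα was higher in 17 of 17 mice. The mean difference was 0.00795 ± 0.00486 (SD, n = 17), with an exact sign-flip permutation p of 1.53e-05 (two-sided, adjusted p 1.83e-05). The highest value of each chain came from β5t-KO replicate 2, whose TCRβ table was used whole. The values still followed table size, from 1.0494 in the smallest TCRα table, with 656 in-frame clones, to 1.0062 in the largest, with 28642. In the full tables the ratio was 1.08 to 1.33 for TCRα and 1.02 to 1.14 for TCRβ, and again higher for TCRα in 17 of 17 mice. When V and J gene were made part of the amino acid identity, the difference fell to 0.00305 ± 0.0028 with the same exact permutation p of 1.53e-05 (n = 17).

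Over the tables of all 17 mice, 27.8% of 89720 distinct TCRα amino acid sequences and 17.1% of 173865 TCRβ sequences had 2 or more nucleotide sequences. The single most extreme sequence was in TCRβ, which had the larger pool. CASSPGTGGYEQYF had 58 nucleotide sequences, more than the 43 of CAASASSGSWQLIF. Of the 173865 TCRβ sequences 886 had 10 or more, and of the 89720 TCRα sequences 717 did, which is the larger share. Of the sequences printed at the start, the 3 forms of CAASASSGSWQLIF came from different V genes and held no N nucleotide. The 3 forms of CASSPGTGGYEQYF came from TRBV4 or TRBV3, and the last bases before J were germline in 1 of them and held 1 N nucleotide in each of the others.

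Mice shared more TCRα than TCRβ sequences. Sharing was the number of amino acid CDR3s found in both of 2 mice as a percent of the mean number in each, expected for 393 clones drawn from each table. Over 8 pairs of mice of the same genotype with no mouse in common, TCRα sharing was 2.66% and 1.69% in the WT pairs, 1.82% and 1.78% in the β5i-KO pairs, 2.78% and 2.37% in the β5t-KO pairs, and 1.68% and 1.53% in the BIT pairs. TCRβ sharing in the same order was 0.373% and 0.472%, 0.428% and 0.44%, 0.414% and 0.583%, and 0.475% and 0.454%. No TCRβ value reached the lowest TCRα value. The mean difference was 1.58 ± 0.505 percentage points (SD, n = 8), a 4.49-fold ratio of means, with an exact sign-flip permutation p of 0.00781 (two-sided, adjusted p 0.00781), the smallest that 8 pairs can give. Over all 136 pairs of the 17 mice, many of which share a mouse and so were not tested, TCRα was higher in 136 of 136, with means of 1.91% and 0.483%.

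When nucleotide sequences had to match, the difference in percentage points was smaller, at 0.409, and the ratio larger. Nucleotide CDR3s were shared at 0.449% ± 0.191 for TCRα and 0.039% ± 0.0124 for TCRβ over the 8 pairs (SD, n = 8), an 11.5-fold ratio, and the difference passed the exact sign-flip permutation test with a p of 0.00781 (n = 8). Of the amino acid sequences that a pair of mice shared in the full tables, an identical nucleotide sequence was present in both mice for 35.9% to 53.6% in TCRα, with a mean of 48.0%. In TCRβ this share ran from 6.25% to 32%, with a mean of 17.1%, and it was lower than in TCRα in 136 of 136 pairs. When the V gene and J gene had to match as well as the amino acid sequence, sharing was 0.701% ± 0.291 for TCRα and 0.13% ± 0.0379 for TCRβ (SD, n = 8), a 5.39-fold ratio. Without thinning it was 17.9% ± 8.28 and 6.30% ± 4.26 (SD, n = 8), a 2.84-fold ratio.

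**Figure D3:**
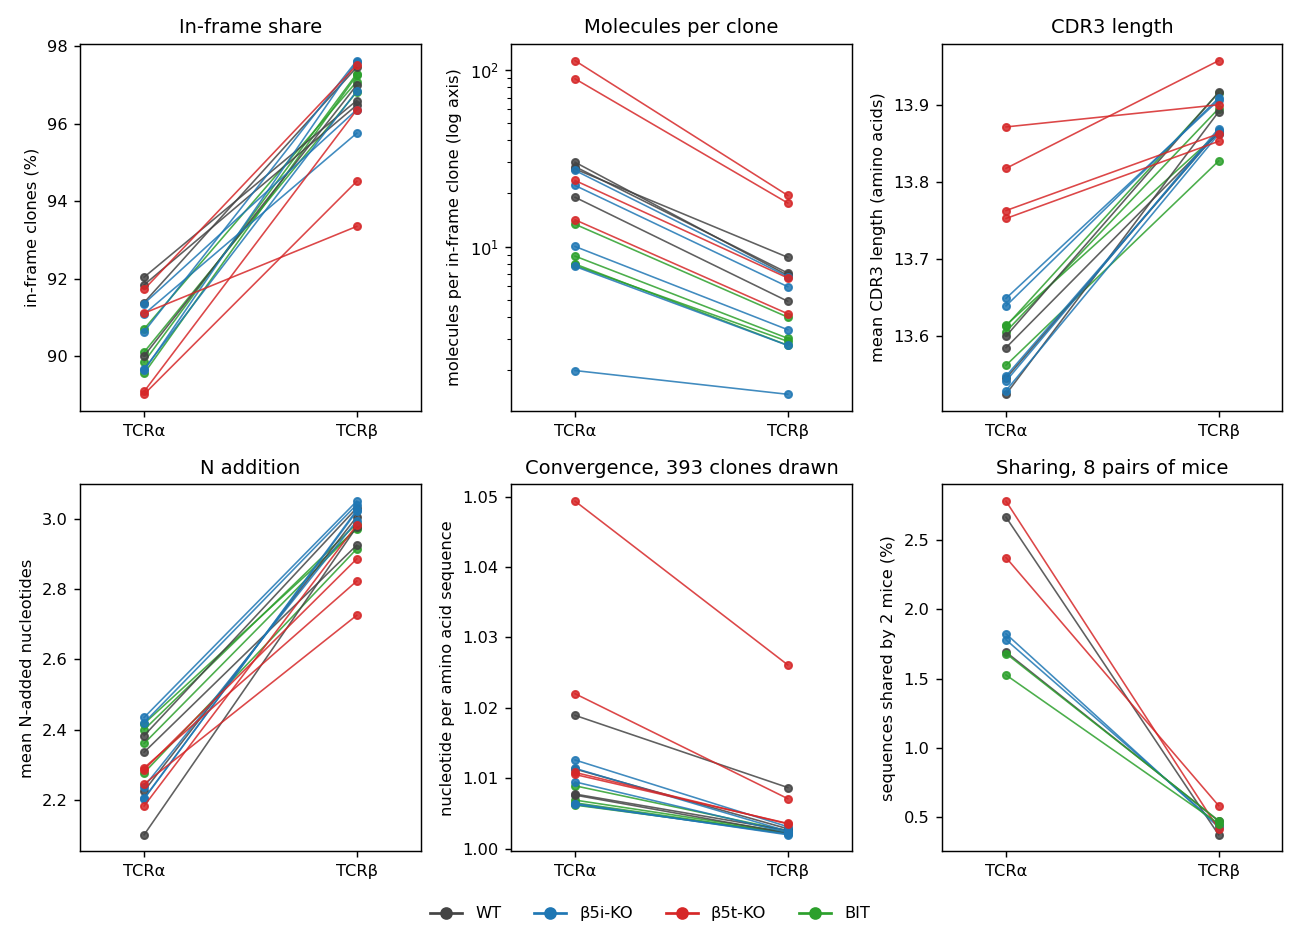
Each panel plots TCRα and TCRβ values joined by a line, coloured by genotype, for 17 mice (in-frame share, molecules per in-frame clone on a log axis, mean CDR3 length, mean N addition, nucleotide per amino acid sequence at 393 clones) or for 8 pairs of mice (percent of amino acid CDR3s shared). Every line of a panel runs in the same direction, and the TCRα length points of the 4 β5t-KO mice (13.75 to 13.87) sit above those of all other mice (13.52 to 13.65).

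Sequences were then grouped by how many of the 17 mice held them. In 2 or more mice were 29.7% of TCRα and 16.9% of TCRβ amino acid sequences. A total of 2286 TCRα sequences were in 9 or more mice, and they held 36.7% ± 3.16 of the in-frame TCRα molecules of a mouse (SD, n = 17). The 650 TCRβ sequences in 9 or more mice held 7.0% ± 1.21 of TCRβ molecules. Sequences found in 1 mouse held 23.0% ± 1.36 of TCRα and 54.6% ± 1.94 of TCRβ molecules. In 17 of 17 mice were 13 TCRα sequences and 0 TCRβ sequences, a count of 0 that the size of the smallest TCRβ tables limits.

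N addition fell with the number of mice in both chains, and at the same number of mice the chains lay close to each other. Distinct nucleotide sequences of TCRα held a mean of 3.68 N nucleotides when their amino acid sequence was in 1 mouse, 2.51 in 2 to 4 mice, 2.02 in 5 to 8 mice and 1.60 in 9 or more mice. The TCRβ means in the same order were 3.65, 2.47, 1.96 and 1.67. The number of nucleotide sequences per amino acid sequence rose from 1.03 to 8.09 for TCRα and from 1.02 to 14.1 for TCRβ between sequences in 1 mouse and those in 9 or more. Mean length fell from 13.97 to 13.25 amino acids for TCRα and from 14.20 to 13.03 for TCRβ. These values describe pooled sequences and were not tested, and the number of mice that hold a sequence also depends on how deeply each mouse was read.

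**Figure D4:**
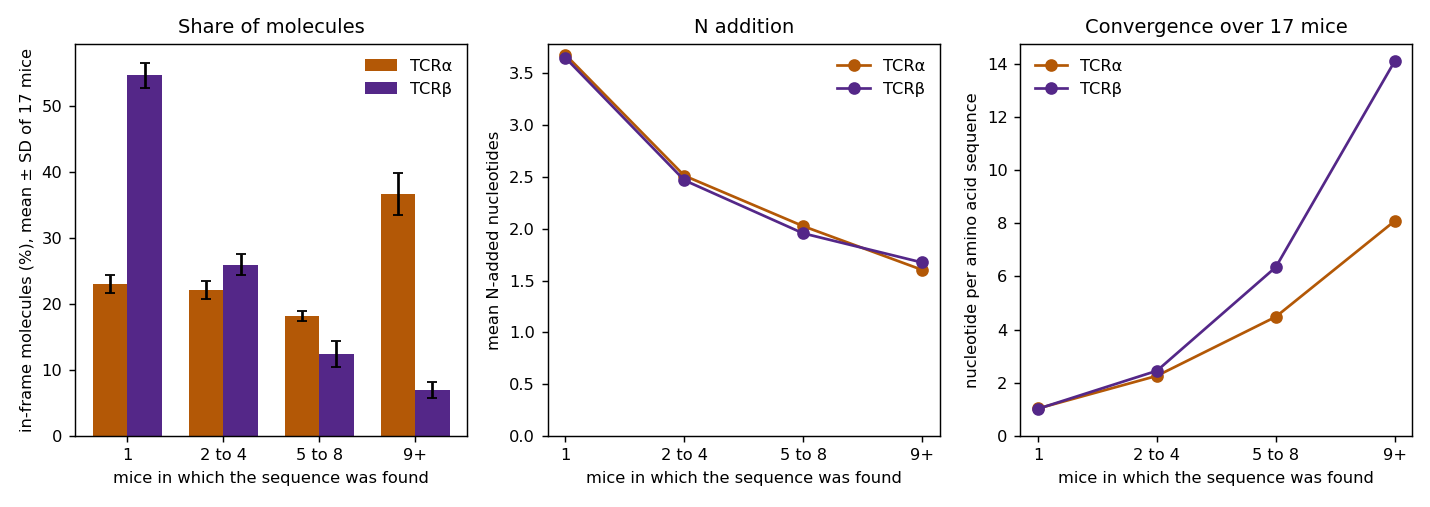
The horizontal axis groups amino acid CDR3s by the number of the 17 mice that held them, for TCRα and TCRβ. The panels plot the percent of in-frame molecules they took (bars are means, error bars SDs of 17 mice), their mean N-added nucleotides, and nucleotide sequences per amino acid sequence. Sequences in 9 or more mice held 36.7% of TCRα but 7.0% of TCRβ molecules, while N addition followed nearly the same line in both chains.

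Abundance is given for the 3 sequences of each chain found in the most mice. Since 13 TCRα sequences were in all 17 mice, those with the highest median share of molecules were taken, and their abundance is in part a product of that choice. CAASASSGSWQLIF made up 0.647% to 2.15% of in-frame TCRα molecules over the 17 mice with a median of 0.808%, and the 4 genotypes overlapped. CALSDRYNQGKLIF ran from 0.0155% to 6.09%, with 4.28% to 6.09% in β5t-KO mice, 0.42% to 1.21% in WT mice, 0.0742% to 0.329% in β5i-KO mice and 0.0155% to 0.056% in BIT mice. These 4 ranges did not overlap. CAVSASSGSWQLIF, whose most widespread forms also use TRAJ22, was in 17 mice at 0.0628% to 0.437%, and in β5t-KO mice (0.0628% to 0.13%) it lay below the other genotypes. These differences between genotypes were not tested, and how often other TCRα sequences separate the genotypes was not counted. The TCRβ sequence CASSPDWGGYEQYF ran from 0% to 0.321% of in-frame TCRβ molecules with a median of 0.0191%. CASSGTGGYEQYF was in 15 mice, with a median of 0.033%. The form of it with 1 more serine was in 15 mice as well, with a median of 0.0394%. The 3 most widespread nucleotide forms of each of these TCRβ sequences used TRBD2 and TRBJ2-7, and other forms were not described.

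The chains of a mouse varied together in some measures. Across the 17 mice, log2 molecules per clone of TCRα and TCRβ correlated with a Pearson r of 0.989 and a Spearman rho of 0.988 (permutation p 1e-05 for each, the smallest that 100000 resamples can give, adjusted p 5e-05 over 5 measures). Nucleotide sequences per amino acid sequence correlated with an r of 0.981 and a rho of 0.877 (permutation p 3e-05 and 2e-05, adjusted p 7.5e-05 and 5e-05). Without the 2 mice farthest from the TCRα median the r values were 0.991 and 0.879, and after removal of genotype means they were 0.98 and 0.978. Both chains of a mouse come from the same RNA and so from the same cells. Table size, which the convergence values followed, varied widely between mice. The part of the shared cells and of table size in these correlations was not tested. The r was 0.0164 for in-frame share, 0.39 for CDR3 length and 0.179 for N addition (permutation p 0.951, 0.122 and 0.496, adjusted p 0.951, 0.203 and 0.62), with rho of -0.00245, 0.289 and 0.157 (permutation p 0.996, 0.257 and 0.545). Without the 2 farthest mice these r values were -0.277, 0.0259 and 0.147. After removal of genotype means they were -0.0745, 0.635 and 0.0876, so the r of CDR3 length was higher within genotypes. The r values after that removal were not tested.

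The difference between the chains was next compared between genotypes, which asks whether a missing or relocated proteasome subunit moves one chain more than the other. In each of the 4 genotypes every mouse had a lower in-frame share, more molecules per clone, a shorter mean CDR3, fewer N nucleotides and more convergence in TCRα than in TCRβ. Within a genotype the exact sign-flip test cannot go below a p of 0.125 with 4 mice or 0.0625 with 5. Between genotypes, 25 comparisons of the within-mouse differences were made, and none passed at an adjusted p of 0.05. The smallest unadjusted p was 0.0286 (exact permutation test), the least that 4 mice against 4 can give, and its adjusted value was 0.179. With 4 mice against 5 the least that this test can give is 0.00794. At either floor a comparison can pass after adjustment only if several others are also low. That none passed therefore says little about whether the genotypes differ.

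CDR3 length was the measure in which β5t-KO mice stood apart. Mean TCRα length was 13.76, 13.87, 13.75 and 13.82 amino acids in β5t-KO replicates 1 to 4, against 13.54, 13.52, 13.58 and 13.60 in WT replicates 1 to 4. Every β5t-KO value was above every WT value. The corresponding TCRβ lengths were 13.86, 13.90, 13.85 and 13.96 in β5t-KO and 13.87, 13.89, 13.86 and 13.92 in WT mice, and these overlapped. The TCRα minus TCRβ difference was -0.0923 ± 0.0463 amino acids in β5t-KO mice and -0.321 ± 0.0361 in WT mice (SD, n = 4 each). The difference between them was 0.229, with no overlap (p 0.0286 by the two-sided exact permutation test, 0.179 after adjustment). β5i-KO mice had a difference of -0.302 ± 0.0351 (SD, n = 5) and BIT mice of -0.277 ± 0.0239 (SD, n = 4). BIT and β5t-KO mice did not overlap either, with a difference of -0.185 and the same p of 0.0286 by the exact permutation test (0.179 after adjustment). The longer TCRα loop of β5t-KO mice lay in the germline parts. The V part was 12.3 ± 0.16 nucleotides and the J part 26.8 ± 0.0429 in β5t-KO mice, against 12.0 ± 0.0534 and 26.5 ± 0.0291 in WT mice, while N addition was 2.25 ± 0.05 and 2.26 ± 0.125 (SD, n = 4 each).

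**Figure D5:**
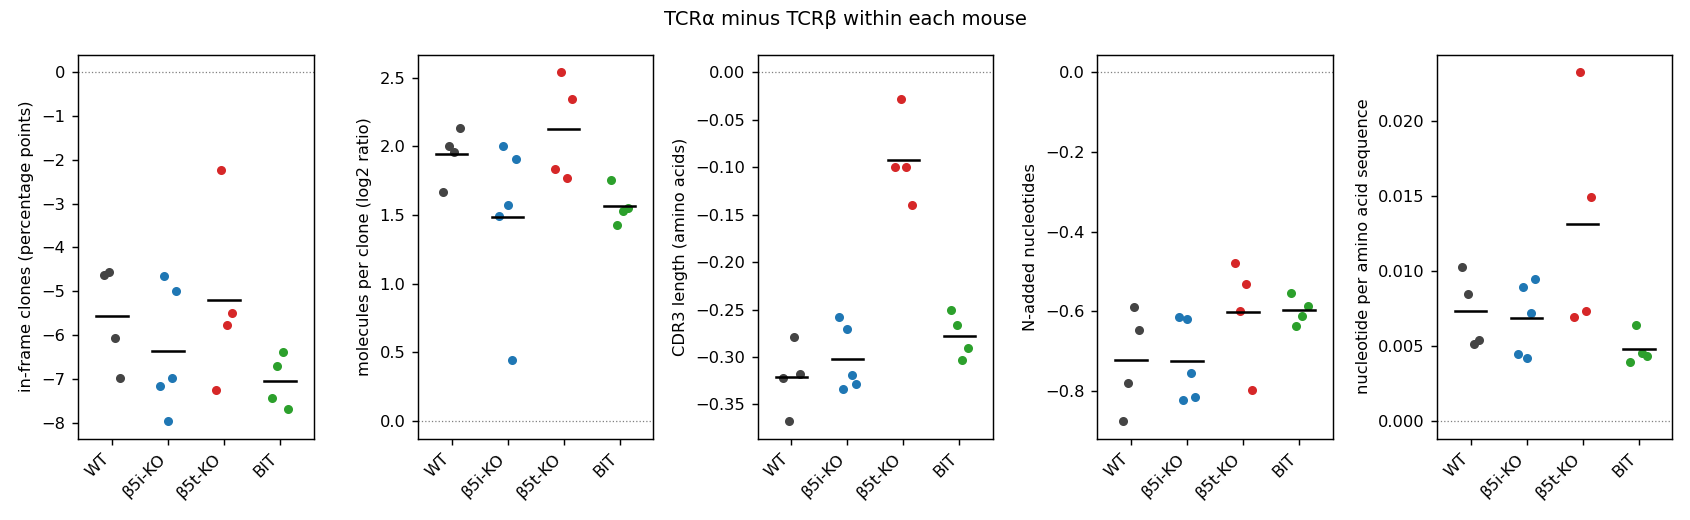
Each panel plots the TCRα minus TCRβ difference of every mouse by genotype (17 mice in all), with a horizontal line at the mean and a dotted line at 0. The panels are in-frame share in percentage points, molecules per clone as a log2 ratio, CDR3 length in amino acids, N-added nucleotides, and nucleotide per amino acid sequence. All points lie on 1 side of 0 in each panel, and the β5t-KO length differences (-0.14 to -0.0288) lie above those of every other mouse.

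In-frame share differed between the chains by -7.05 ± 0.611 percentage points in BIT mice (SD, n = 4), -6.36 ± 1.45 in β5i-KO mice (n = 5), -5.56 ± 1.18 in WT mice (n = 4) and -5.19 ± 2.12 in β5t-KO mice (n = 4). Molecules per clone were 4.36-fold higher for TCRα in β5t-KO mice, 3.84-fold in WT mice, 2.96-fold in BIT mice and 2.80-fold in β5i-KO mice, and the BIT and β5t-KO values did not overlap (exact permutation p 0.0286, adjusted p 0.179). N addition differed by -0.725 ± 0.102 nucleotides in β5i-KO mice, -0.722 ± 0.129 in WT mice, -0.602 ± 0.14 in β5t-KO mice and -0.597 ± 0.0353 in BIT mice, with overlap in each of the pairs compared. Nucleotide sequences per amino acid sequence differed by 0.0131 ± 0.0077 in β5t-KO mice, 0.00733 ± 0.00247 in WT mice, 0.00685 ± 0.00246 in β5i-KO mice and 0.0048 ± 0.00109 in BIT mice. On this measure too BIT and β5t-KO mice did not overlap (exact permutation p 0.0286, adjusted p 0.179). The β5t-KO tables were the smallest on average and the BIT tables the largest, with 4812 and 23070 TCRα clones per mouse, and the part of table size in these differences was not tested.

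Sharing between mice of the same genotype had a mean of 2.08% for TCRα and 0.454% for TCRβ in WT mice (6 pairs), 1.98% and 0.45% in β5i-KO mice (10 pairs), 2.55% and 0.588% in β5t-KO mice (6 pairs) and 1.60% and 0.466% in BIT mice (6 pairs). These pairs share mice, so the genotypes were described and not tested. Averaged over the other mice, TCRα sharing was 2.19% for β5t-KO replicate 2, with the smallest TCRα table of 656 in-frame clones. For BIT replicate 1, with the largest of 28642, it was 1.60%. The part of table size in the values by genotype was not tested. Mice of different genotypes shared 1.87% of TCRα and 0.483% of TCRβ sequences on average over 108 pairs, against 2.04% and 0.484% over 28 pairs of the same genotype.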

How the data were processed

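RNA of sorted CD8 T cells was amplified with a mouse TCR profiling kit that adds molecular identifiers. The columns of the clone tables are those of MiXCR, which the authors ran on their reads. Its version, settings and clone filters were not given in the sources used here. Per the file headers, the deposited tables hold for each clone the count of reads and the count of unique molecules as whole numbers, not normalised, with the positions where V, D and J begin and end. The labels name mm10, but the tables hold no coordinates. Positions in the text were taken from GENCODE vM39 on GRCm39. Between 1983032 and 8480570 reads stood behind TCRα tables, and between 614169 and 2856711 behind TCRβ tables, and intervals or limits from these cover counting error only. No clone of β5i-KO replicate 4 had fewer than 9 TCRα reads or 5 TCRβ reads, whereas most tables went down to 1.

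WT replicate 5 (1 TCRβ clone), β5t-KO replicate 5 (25 TCRα and 12 TCRβ clones) and BIT replicate 3 (528 and 440 clones) were left out. No pair of tables within a group shared more than 22.4% of clones, so none of those pairs was a duplicate. Pairs of tables from different groups were not checked in this way. N nucleotides were counted from V end to J start less an assigned D, and palindromic bases count with their segment. Thinning used expected values, with no random draw. The mouse was the pair, and chains were compared with exact sign-flip permutation tests over mice, and genotypes with exact permutation tests, all two-sided with Benjamini-Hochberg adjustment. Formulas and tests were checked on simulated data. Alternatives were other weights, clone minimums, depth settings, blocks of replicate number, and omission of each mouse in turn.

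The text names, per chain, the 3 amino acid sequences in the most mice (ties by highest median share of molecules) and the one with the most nucleotide sequences, and J genes with the shortest and longest loops and V and J genes with the most clones, with at least 100 clones for a length. TRAJ24 was named after its values were seen. The measures, members and rules were chosen with earlier results of these data known. Python 3.11.15, NumPy 2.4.6, pandas 2.3.3, SciPy 1.17.1 and Matplotlib 3.10.9 were used.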

Additional observations from a re-analysis of the deposited data

Results flagged for a closer look

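A total of 3 values lay far from the other mice of their genotype, among 60 groups of 4 or 5 mice examined, and chance alone would mark about 1 in 20 groups. Mean TCRα CDR3 length in BIT replicate 2 was 13.56 amino acids, against 13.61 in each of the other BIT mice. Nucleotide sequences per amino acid sequence in TCRβ, at 393 clones, were 1.00868 in WT replicate 1, against 1.0022 to 1.00282 in the other WT mice. The same measure was 1.02611 in β5t-KO replicate 2, against 1.00351 to 1.0071 in the other β5t-KO mice. The TCRβ tables of these last mice were the smallest used, with 931 and 393 in-frame clones.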

How the results depend on the processing

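Of the 6 comparisons of the chains, each kept its direction and passed when any mouse was left out, in 101 recalculations, and in 38 other settings. In 7 settings a comparison no longer passed, and in 1 it turned. Same-numbered mice of different genotypes deviated from their group means with correlations of -0.227 to 0.587 over 148 V and J genes. These were over 0.1 in 8 of 18 pairs. Differently numbered mice were not set beside them, so the values do not settle whether replicate numbers pair the mice. With replicate number as a block, 5 blocks cannot go below an exact p of 0.0625, which was reached for in-frame share (-6.12), molecules per clone (1.76), length (-0.255), N addition (-0.664), convergence (0.00773) and sharing (1.38). At equal molecules the log2 ratio of molecules per clone was 0.18 (p 0.13). N addition per junction, with an assigned D, turned to 1.07. Counting the whole V to J gap gave -6.95, and N addition at equal molecules -0.679. These settings and the one without TRAJ24 were chosen after seeing the data. Adding BIT replicate 3 gave no value for sharing, since no pair of the 8 holds it, and leaving out β5i-KO replicate 5 changed none of them.

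None of the 25 comparisons between genotypes passed in any setting, and the sign held in 197 recalculations with a mouse left out and in 58 others, and changed in 13 and 7. With β5t-KO against WT, in-frame share was -0.338 at a minimum of 2 molecules and -0.618 to 1.06 with each mouse left out. With BIT against β5i-KO, molecules per clone were -0.0125 at that minimum and -0.177 to 0.212 with each mouse left out, and in-frame share was 0.0273 with BIT replicate 3. N addition in β5i-KO against WT was 0.0197 with the replicate block and -0.0537 to 0.0418 with each mouse left out. In BIT against β5t-KO it was -0.0439 with BIT replicate 3 and -0.0606 to 0.0456 with each mouse left out. Convergence in β5i-KO against WT was -0.0012 to 0.000493 with each mouse left out, and with BIT replicate 3 it was 0.000891 in BIT against WT and 0.00137 in BIT against β5i-KO. The cause of these changes was not tested, and none of these values had passed.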

Other observations

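The bases counted as N nucleotides differed in composition between the chains. G and C made up 67.9% ± 0.663 of N bases in in-frame TCRα clones and 57.9% ± 0.379 in TCRβ clones (SD, n = 17), higher for TCRα in 17 of 17 mice. G alone made up 39.8% ± 1.44 in TCRα and 31.8% ± 0.373 in TCRβ, and A made up 16.6% ± 0.454 and 23.6% ± 0.571. Bases of a TCRβ D segment that could not be assigned are part of these values, and their share was not tested.

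TRAJ24 (chr14:54433095-54433157) stood apart from the other TCRα J genes, with a mean of 6.34 bases counted as N per in-frame clone over 2858 clones, against 3.27 in TRAJ47, the next highest. J bases that the alignment did not assign to the J gene are counted as N, and whether the reference sequence used for TRAJ24 differs from that of these mice was not tested. Without TRAJ24 clones the N difference between the chains was -0.718 ± 0.114 nucleotides (SD, n = 17), a setting chosen after the data were seen. The 5 TRAJ genes with the most clones, of 43, held 23.6% of TCRα clones, and the top 5 of 12 TRBJ genes held 66.9% of TCRβ clones.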
